A study of Mus musculus with 8 samples.

Results

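The genes described here are the neighbours of Gata2 on mouse chromosome 6: every gene other than Gata2 whose annotated span lies within 5 Mb of it (chr6:83193891-93207032, GRCm38) and that had 10 or more fragments in at least 4 of the 8 libraries. Of 53715 genes counted, 326 lie in this window, and 101 of them met the count minimum, 72 on the lower-coordinate side of Gata2 and 29 on the higher-coordinate side. RNA was sequenced from bone marrow haematopoietic stem cells of mice, sorted as Lineage-, Sca-1+, Kit+ cells without CD48 and with CD150. There were 4 wild-type mice and 4 mice labelled as Gata2 heterozygotes with Mx1-Cre, with 1 library per mouse. All mice were 8 to 12 weeks old and had been given 6 doses of pIpC, a double-stranded RNA mimic that induces interferon. Mx1-Cre is a recombinase transgene driven by an interferon-responsive promoter that is active in many tissues, so recombination is not limited to blood stem cells. The labels name the transgene for the heterozygotes only, do not say whether wild-type mice carried it, and give no strain, so the Gata2 allele, the transgene and the background of the mice cannot be told apart in this comparison.

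Gata2 encodes a zinc-finger transcription factor on which the formation and maintenance of blood stem cells depend. A distal haematopoietic enhancer of Gata2 lies upstream of it, towards Rpn1, and in a chromosome rearrangement of human myeloid leukaemia that enhancer is moved next to MECOM, so the neighbourhood is known for regulatory elements that can act on more than 1 gene. Genes close to an engineered allele are also inherited together with it. The neighbours were therefore set out by side and by distance, to ask whether genes near Gata2 differed between the genotypes.

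The 5 promoters shown here belong to the nearest neighbour on each side of Gata2, Rpn1 and Eefsec, and to the members whose levels did not overlap between genotypes, which are Mthfd2, Gmcl1 and Nr2c2 beside Eefsec. Each is the stretch of up to 250 bases upstream of the RefSeq start (GRCm38.p6), written 5′ to 3′ on the strand of its gene, without bases annotated as untranslated region, and CpG dinucleotides are in capitals. The positions are chr6:88084223-88084472 (plus) for Rpn1, chr6:88446540-88446789 (minus) for Eefsec, chr6:83317607-83317854 (minus) for Mthfd2, chr6:86733384-86733628 (minus) for Gmcl1 and chr6:92092183-92092432 (plus) for Nr2c2. The RefSeq starts of Mthfd2 and Nr2c2 lie inside the longer spans that were counted.
Rpn1: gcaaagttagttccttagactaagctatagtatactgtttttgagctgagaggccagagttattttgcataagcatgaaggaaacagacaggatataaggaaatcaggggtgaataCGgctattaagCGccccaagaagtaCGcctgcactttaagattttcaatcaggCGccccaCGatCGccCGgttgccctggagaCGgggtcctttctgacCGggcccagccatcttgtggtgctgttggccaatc
Eefsec: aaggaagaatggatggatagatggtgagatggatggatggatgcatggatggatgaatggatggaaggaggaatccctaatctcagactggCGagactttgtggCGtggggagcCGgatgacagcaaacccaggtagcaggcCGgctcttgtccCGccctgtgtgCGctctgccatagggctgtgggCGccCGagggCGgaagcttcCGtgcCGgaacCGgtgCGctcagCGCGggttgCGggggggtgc
Mthfd2: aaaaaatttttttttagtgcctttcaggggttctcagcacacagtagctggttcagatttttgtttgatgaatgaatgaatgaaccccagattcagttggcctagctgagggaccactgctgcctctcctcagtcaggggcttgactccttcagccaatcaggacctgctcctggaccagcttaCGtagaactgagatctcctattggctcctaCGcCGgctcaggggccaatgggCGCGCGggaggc
Gmcl1: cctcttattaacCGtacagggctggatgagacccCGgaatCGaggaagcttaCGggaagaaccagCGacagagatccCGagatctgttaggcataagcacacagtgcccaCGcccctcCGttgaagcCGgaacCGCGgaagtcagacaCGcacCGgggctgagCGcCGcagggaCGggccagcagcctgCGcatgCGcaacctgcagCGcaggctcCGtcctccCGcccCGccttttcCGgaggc
Nr2c2: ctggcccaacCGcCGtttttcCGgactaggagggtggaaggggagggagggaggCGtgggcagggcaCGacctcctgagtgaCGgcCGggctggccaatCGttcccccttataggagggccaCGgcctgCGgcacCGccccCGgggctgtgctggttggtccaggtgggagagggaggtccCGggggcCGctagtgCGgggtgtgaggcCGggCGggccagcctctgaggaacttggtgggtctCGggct
The 5 sequences hold different numbers of CpG. The full 250 bases upstream held 9 CpG in Rpn1, 16 in Eefsec, 7 in Mthfd2, 24 in Gmcl1 and 18 in Nr2c2, of which 6 are in the 248 bases printed for Mthfd2 and 23 in the 245 bases printed for Gmcl1. These counts stand against a median of 15 over the 95 RefSeq promoters of 76 neighbours, 15 over 12336 promoters of all genes tested and 6 over all 32851 promoters. The usual GATA factor motif was searched on both strands, as the hexamer AGATAA, as the form of it with a final G (AGATAG), and with T as the first base, which reads TGATAA and, if the final base is G, reads TGATAG. It was found in none of these 5 promoters. At least 1 such hexamer was present in 15 of the 95 neighbour promoters (15.8%), in 17.6% of promoters of genes tested and in 26.5% of all promoters. A match describes letters only, and no match says nothing about binding of the factor.

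Of the 101 neighbours, 74 were protein-coding, out of 138 protein-coding genes in the window, and the others were mainly antisense and long intergenic RNAs, unclassified transcripts and processed pseudogenes. 85 had 10 or more fragments in all 8 libraries and 16 did not. None reached 10 fragments in 1 genotype only. Values of single libraries are given in the order of replicates 1 to 4. At the count minimum, Gm44187 was the one member with 10 fragments in exactly 4 libraries, with 15, 11, 1 and 31 fragments in wild type and 4, 7, 1 and 12 under the heterozygote label. Just outside it, with 10 fragments in 3 libraries, stood 10 genes that include Plxna1, a semaphorin receptor, and Prokr1, a prokineticin receptor. Of 225 window genes below the minimum, 148 had no fragment in any library. The 225 genes below the minimum included 23 vomeronasal receptor genes of the Vmn1r family, which serve pheromone detection. Of these, 1 had any fragment, with at most 17 in a library. At the ends of the window, Mthfd2 and Rbsn lie just inside, and Dctn1 (0.516 ± 0.611 CPM in wild type, SD, n = 4) and 9530026P05Rik (0.679 ± 0.793 CPM) reach across the limits and were left out.

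The expressed neighbours were unevenly placed and spanned a wide range of levels. They fell into runs separated by gaps, of which the widest lay between Txnrd3 and Zxdc (0.694 Mb) on the higher side and between Zfp638 and Exoc6b (0.629 Mb) on the lower side. Mean levels over the 8 libraries ran from 0.483 to 4466 CPM, in which counts are divided by each library's TMM-scaled total, and 59 neighbours had a mean of at least 10 CPM. On a per-length scale, as mean CPM per kb of exon, Cnbp stood far above the rest at 1471. It encodes a zinc-finger nucleic acid binding protein. Below it came Rab7 (115), a GTPase of late endosomes, Cct7 (113), a subunit of the chaperonin CCT, Ruvbl1 (113), an ATPase of chromatin remodelling complexes, and Snrnp27 (90.6) and Lsm3 (87.5), both of the splicing machinery. Rab7, Cct7 and Ruvbl1 did not differ from one another in level beyond their spread. The median neighbour had 4.6 CPM per kb, Gata2 itself had 7.46, and 39 neighbours had more per kb than Gata2.

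**Figure D1:**
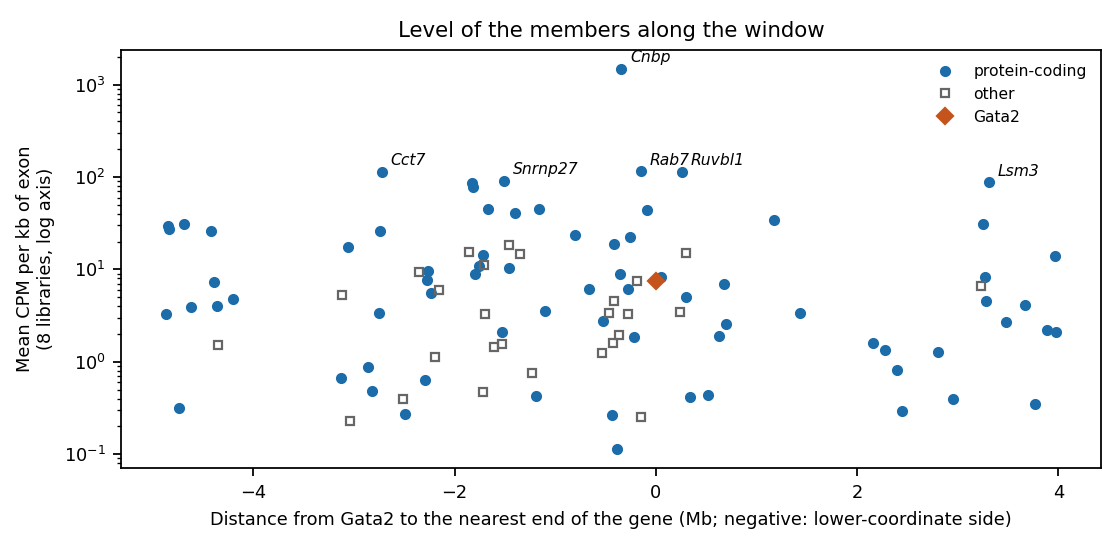
Mean level of each of the 101 neighbours (CPM per kb of exon, 8 libraries, log axis) by distance from Gata2 in Mb, with protein-coding genes as filled circles, other genes as open squares and Gata2 as a diamond. Cnbp at 1471 stands above all others, and genes of all levels lie on both sides.

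Gata2 is the reference for the labels. Its level was 30.1, 45.3, 29.1 and 38.5 CPM in wild type and 35.5, 61.9, 36.7 and 45.1 CPM under the heterozygote label. The groups overlapped, and the heterozygote-labelled mean was not below the wild-type mean (log2 fold change 0.33, SE 0.23, edgeR adjusted p = 0.858). The transcript total thus did not bear out the label, and counts over all exons do not show whether an allele had lost some of them. All directions given here compare the libraries labelled heterozygote with those labelled wild type. Library totals ran from 16750778 to 22861884 fragments. Of 10 stem cell markers all were detected, summing to 762 to 1108 CPM in wild type and 794 to 925 CPM under the heterozygote label. Markers of other blood cells were present too. All 8 granulocyte and monocyte markers were detected, summing to 537 to 657 CPM in wild type and 500 to 627 CPM under the heterozygote label. Of 6 T and NK cell markers 3 were detected, summing to 233 to 438 and 312 to 513 CPM, and Cd3e, Cd3g and Cd8a had no fragments. Of 6 B cell markers 4 were detected, summing to 104 to 132 and 104 to 125 CPM. Their part in the levels of the neighbours was not tested. In bulk RNA, fewer cells with a transcript and less of it per cell cannot be told apart.

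No neighbour passed the test for a difference between genotypes. Of the 101, 0 had an adjusted p under 0.05 by edgeR's quasi-likelihood test with Benjamini-Hochberg adjustment over all 13992 genes tested, against a background of 0% of all genes, and the smallest adjusted p among neighbours was 0.85. DESeq2 called 0 neighbours as well (smallest adjusted p 0.0757, for Mthfd2), where it called 0.505% of all genes. limma-voom with sample quality weights called 0. At an unadjusted edgeR p under 0.05 stood 8 neighbours (7.92%), against 5.66% of all genes and 4.54% of 639 genes on the rest of chromosome 6. Of the 8, Fam136a was higher under the heterozygote label (0.99% of neighbours, background 2.37%) and 7 were lower (6.93%, background 3.29%). The total was 14 without wild-type replicate 3 (13.9%, against 12.5% of all genes in that fit) and 4 without heterozygote-labelled replicate 3 (3.96% against 4.33%). It was 5 without wild-type replicate 4 (4.95% against 5.17%) and 6 with a term for sex, read from sex-linked transcripts (5.94% against 6.05%). The share of neighbours was thus below the background in the last 3 of these fits. The number lower was 11 without wild-type replicate 3 and 4 without either wild-type replicate 2 or heterozygote-labelled replicate 3. Shares over all genes in that direction are not given for these fits. Without wild-type replicate 2, 5.94% of neighbours were at such a p in either direction, against 3.87% of all genes. These p-values set the difference between genotypes against the spread between these 8 mice, with the estimate of that spread shared in part across genes.

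Levels of 4 neighbours did not overlap between the genotypes, and all 4 were lower under the heterozygote label (3.96%), where 1.82% of all genes were without overlap in that direction and 3.47% in either. No neighbour was without overlap in the higher direction, where 1.65% of all genes were. With 1 library fewer, fewer values have to be kept apart, and the count in either direction was 13 without wild-type replicate 3 (12.9%, against 13.4% of all genes), 8 without heterozygote-labelled replicate 2 (7.92% against 6.22%) and 7 without wild-type replicate 1 (6.93% against 5.39%), heterozygote-labelled replicate 1 (6.93% against 6.53%) or heterozygote-labelled replicate 4 (6.93% against 6.98%). The count was 6 without wild-type replicate 2 (5.94% against 5.35%) and 5 without wild-type replicate 4 (4.95% against 6.16%). Without heterozygote-labelled replicate 3 it was 4 (3.96% against 5.77%). The 4 neighbours without overlap in all libraries are spread over the window. Mthfd2 is at its lower end, Gmcl1 at 1.46 Mb, Eefsec next to Gata2 and Nr2c2 near the higher end.

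Eefsec (ENSMUSG00000033216.9, chr6:88257334-88446539, minus strand) encodes the elongation factor that brings selenocysteine to the ribosome. It is the nearest neighbour of all, with its 3′ end 50.3 kb from Gata2. Its level was 36.2, 34.4, 25.1 and 24.2 CPM in wild type and 21.4, 14.3, 10.8 and 21.0 CPM under the heterozygote label. Each wild-type library lay above each heterozygote-labelled one, with means of 30.0 ± 6.22 and 16.9 ± 5.19 CPM (SD, n = 4 each). The log2 fold change was -0.83 (SE 0.28, unadjusted p = 0.0135, edgeR adjusted p = 0.85), with a 95% interval of the fold from 0.367 to 0.863. It kept its sign in 18 of 18 other treatments of the data, between -0.95 and -0.62.

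Rpn1 (ENSMUSG00000030062.7, chr6:88084482-88105304, plus strand), on the other side of Gata2 at 88.6 kb, encodes ribophorin I, a subunit of the oligosaccharyltransferase of the endoplasmic reticulum. It measured 240.0, 270.0, 167 and 198 CPM in wild type and 168, 163, 176 and 212 CPM under the heterozygote label. Wild-type replicates 1 and 2 were the highest and the other libraries overlapped. The log2 fold change was -0.28 (SE 0.16, edgeR adjusted p = 0.85), with a 95% interval of the fold from 0.641 to 1.05.

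Mthfd2 (ENSMUSG00000005667.8, chr6:83305691-83325908, minus strand), a mitochondrial enzyme of folate metabolism, had the smallest p of all neighbours although it lies 4.87 Mb from Gata2, nearly at the end of the window. Its level was 16.8, 10.5, 17.8 and 15.9 CPM in wild type and 10.3, 7.71, 6.05 and 6.91 CPM under the heterozygote label. Wild-type replicate 2 and heterozygote-labelled replicate 1 nearly met, and the other libraries were well apart. Its log2 fold change was -0.98 (SE 0.29, unadjusted p = 0.00687, edgeR adjusted p = 0.85), between -1.14 and -0.88 in 18 other treatments of the data.

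Gmcl1 (ENSMUSG00000001157.13, chr6:86691768-86733383, minus strand), a relative of the fly germ cell-less protein, measured 98.3, 69.0, 79.2 and 64.3 CPM in wild-type replicates 1 to 4. Heterozygote-labelled replicates 1 to 4 had 54.2, 59.6, 51.1 and 63.7 CPM. The groups were kept apart by a narrow margin between the fourth replicates, and the log2 fold change was -0.44 (SE 0.16, edgeR adjusted p = 0.85).

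Nr2c2 (ENSMUSG00000005893.14, chr6:92091390-92174294, plus strand), an orphan nuclear receptor, measured 43.2, 35.7, 38.4 and 39.5 CPM in wild-type replicates 1 to 4. Heterozygote-labelled replicates 1 to 4 had 24.7, 33.3, 18.5 and 28.3 CPM. The wild-type libraries were close together and the heterozygote-labelled ones were spread below them, with a log2 fold change of -0.58 (SE 0.21, edgeR adjusted p = 0.85). Its span overlaps Mrps25 on the opposite strand by 4770 bases, and counting was strand-specific.

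The other 4 neighbours at an unadjusted p under 0.05 had overlapping groups. Nagk, a kinase that salvages N-acetylglucosamine, measured 35.9, 43.3, 46.1 and 35.1 CPM in wild type and 26.5, 23.4, 24.5 and 36.7 CPM under the heterozygote label, where replicate 4 lay within the wild-type range (log2 fold change -0.53, SE 0.20). Spr, sepiapterin reductase of tetrahydrobiopterin synthesis, measured 83.7, 88.1, 46.3 and 69.3 CPM against 46.4, 58.2, 51.6 and 51.0 CPM, and wild-type replicate 3 was the lowest library of all (-0.47, SE 0.20). Fam136a, a mitochondrial protein, measured 219, 181, 246 and 199 CPM against 241, 260.0, 252 and 256 CPM, so that wild-type replicate 3 alone reached the heterozygote-labelled range (0.26, SE 0.11). The long intergenic RNA Gm43904, named after its values were seen, was near the count minimum, with 1.78, 4.76, 1.44 and 2.95 CPM against 0.601, 0.612, 0.164 and 1.64 CPM (-1.85, SE 0.78). The edgeR adjusted p of each was 0.85.

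**Figure D2:**
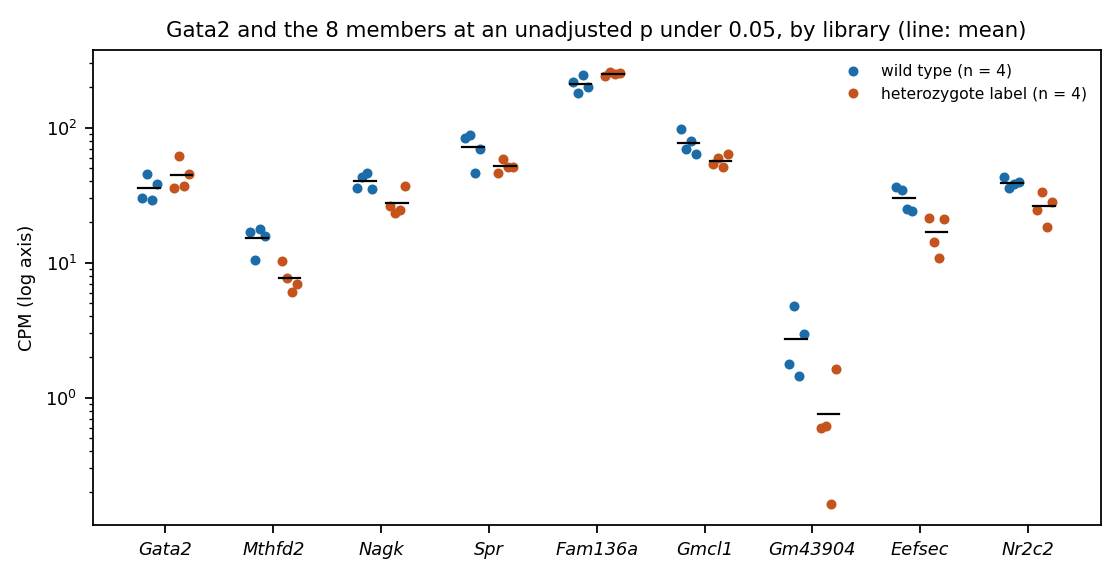
Level in each library (CPM, log axis) of Gata2 and of the 8 neighbours at an unadjusted p under 0.05, ordered from the lower to the higher end of the window, with wild type in blue, the heterozygote label in orange (n = 4 each) and means as lines. Mthfd2, Gmcl1, Eefsec and Nr2c2 show no overlap between genotypes, while Gata2 overlaps.

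Immediately downstream of Gm43904, Gp9 encodes platelet glycoprotein IX of the von Willebrand factor receptor. It was named for its place in the megakaryocyte marker list. It measured 22.8, 26.5, 14.3 and 17.5 CPM in wild type and 10.7, 19.1, 14.1 and 8.85 CPM under the heterozygote label. The groups overlapped, and the log2 fold change of -0.62 (SE 0.31) had an edgeR adjusted p of 0.85. All 7 megakaryocyte and platelet markers, Gp9 included, were detected, and their summed level ran from 659 to 940 CPM in wild type and from 492 to 804 CPM under the heterozygote label. The part of these cells in the level of Gp9 was not tested. Fgd5, a neighbour that also marks blood stem cells, was low at 2.07, 3.20, 2.06 and 0 CPM in wild type and 3.46, 3.55, 1.25 and 2.10 CPM under the heterozygote label (log2 fold change 0.50, SE 1.03), with overlapping groups.

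By position, the neighbours closest to Gata2 were more often lower than higher under the heterozygote label. Within 0.5 Mb, 18 of 23 had a log2 fold change below 0 (median -0.19), and from 0.5 to 1 Mb 6 of 8 had one (median -0.23). From 1 to 2.5 Mb the count was 15 of 36 (median 0.04), and from 2.5 to 5 Mb it was 21 of 34 (median -0.16). Over all 101, 60 were lower (59.4%, median -0.12), where 53.8% were lower on the rest of chromosome 6 (median -0.03) and 52% over all genes tested (median -0.02). Most of these differences were smaller than their errors, with a median SE of 0.31 among neighbours. The medians did not fall off evenly with distance. From 2.5 to 5 Mb, 15 of 21 genes were lower on the lower-coordinate side (median -0.22). On the higher-coordinate side 6 of 13 were lower at that distance (median 0.05).

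The count within 1 Mb, a range chosen after the values were seen, was 24 of 31. It was 20 of 31 (64.5%) without wild-type replicate 2, against 49.9% of all genes in that fit, and the median moved from -0.22 to -0.09. It was 21 of 31 (67.7%, median -0.15) once trends on GC content and on gene length had been taken out, against 48.6% of all genes. Wild-type replicate 2 was the library in which the neighbours stood highest, with a median deviation from each gene's mean of 0.22 on the log2 scale, where the other wild-type libraries were between 0.04 and 0.05 and the heterozygote-labelled ones between -0.05 and 0.02. On the higher-coordinate side alone its deviation was 0.54.

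Over the whole window, counts were close on the 2 sides, and the difference between them was not tested. The lower side had 43 of 72 genes below 0 (59.7%, median -0.08) and the higher side 17 of 29 (58.6%, median -0.19). The median size of the log2 fold change, regardless of sign, was 0.28 among neighbours, 0.29 on the rest of chromosome 6 and 0.27 over all genes tested. As a description across genes, which are not independent replicates, Spearman's rho between distance and the size of the log2 fold change was 0.0544 over the 101 neighbours. Leaving out Cnbp, the neighbours together summed to 5231 ± 212 CPM in wild type and 5070 ± 34.6 CPM under the heterozygote label (SD, n = 4 each), and the groups overlapped. For 51 of the 101, the 95% interval of the fold lay wholly between a halving and a doubling.

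**Figure D3:**
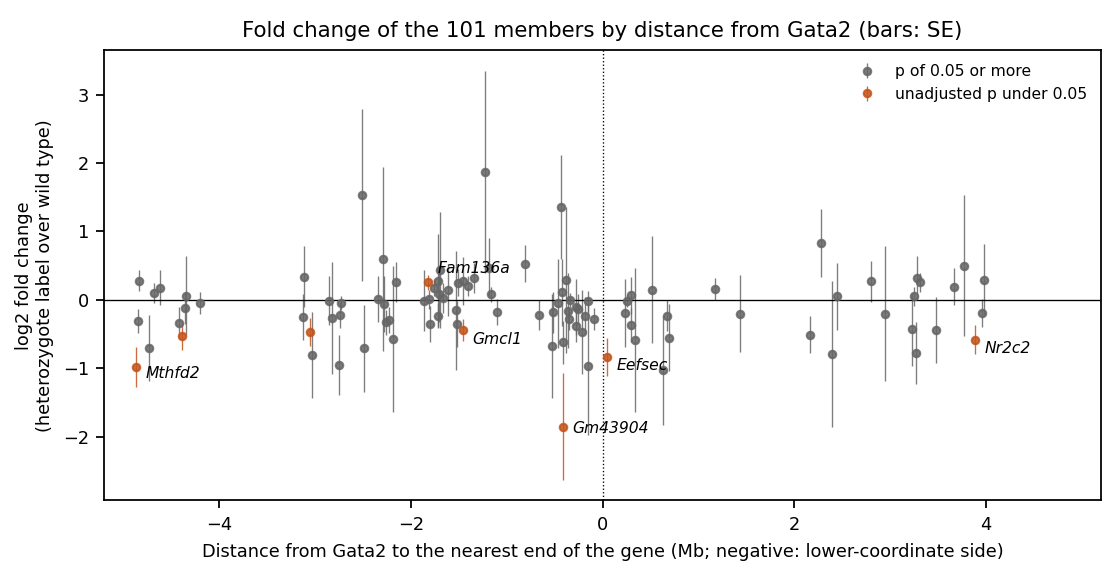
Log2 fold change (heterozygote label over wild type) with its SE for the 101 neighbours, by distance from Gata2 in Mb, negative on the lower-coordinate side, with the 8 neighbours at an unadjusted p under 0.05 in orange. Low points such as Mthfd2, Eefsec and Nr2c2 lie at the ends as well as the centre of the window, and most bars cross 0.

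**Figure D4:**
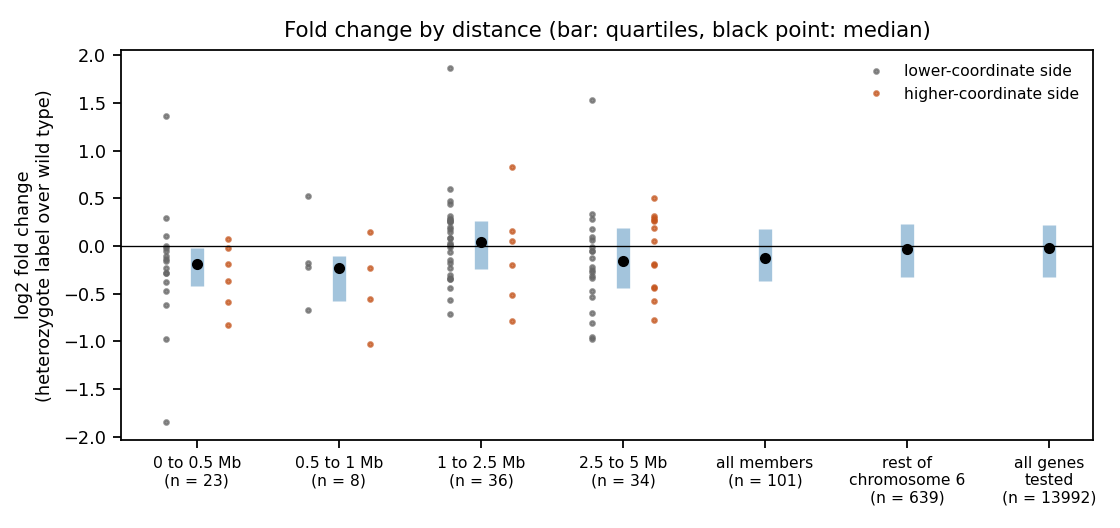
Log2 fold changes of the neighbours by distance range (small points, grey on the lower-coordinate side and orange on the higher), with the median (black point) and quartiles (bar) of each range, of all neighbours, of the rest of chromosome 6 and of all genes tested. The medians are -0.19 and -0.23 in the 2 nearest ranges, 0.04 from 1 to 2.5 Mb and -0.16 beyond.

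Among the other close neighbours, levels overlapped between genotypes throughout. On the side of Rpn1, Rab7 measured 271, 377, 257 and 306 CPM in wild type and 346, 291, 244 and 312 CPM under the heterozygote label (log2 fold change -0.02, SE 0.15). Beyond it, H1fx, a linker histone gene, had a log2 fold change of -0.47 (SE 0.61), the antisense RNA Gm5577 one of -0.23 (SE 0.27) and the unclassified Gm44187, which lies within Rab7 on the same strand, one of -0.97 (SE 1.01). On the side of Eefsec, Ruvbl1 measured 197, 233, 222 and 213 CPM in wild type and 214, 212, 222 and 207 CPM under the heterozygote label (-0.02, SE 0.09). Its fold had the 95% interval 0.856 to 1.14, so Ruvbl1 was measured precisely at 258 kb from Gata2. Sec61a1, the pore subunit of the protein translocon, measured 39.0, 56.5, 26.1 and 29.6 CPM against 31.7, 26.5, 32.3 and 26.2 CPM (-0.37, SE 0.25), and its value rested on wild-type replicate 2, since it was -0.10 without it. The antisense RNAs Gm44264 and Gm44170 had log2 fold changes of -0.19 (SE 0.50) and 0.07 (SE 0.27). The signs for Rab7, Ruvbl1 and Gm44170 turned in at least 1 other treatment of the data.

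Grouped by function, no list held a neighbour past the test. These counts stand beside 52% of all genes with a log2 fold change below 0 and 5.66% at an unadjusted p under 0.05, and the lists, of 3 to 11 neighbours each, were not compared with one another or with other genes. In DNA replication, repair and chromatin, 8 of 9 neighbours were lower and 1 higher (median -0.20, none at an unadjusted p under 0.05). Smyd5, a methyltransferase, had 25.8 ± 14.6 CPM in wild type and 13.4 ± 3.25 CPM under the heterozygote label (SD, n = 4 each; log2 fold change -0.95, SE 0.44). Wild-type replicate 3, at 8.18 CPM, was the lowest of all 8 libraries, so the groups overlapped. Tet3, which oxidises 5-methylcytosine, had 6.60 ± 2.60 and 4.05 ± 1.83 CPM (-0.70, SE 0.48). Mcm2, of the replicative helicase, had 52.1 ± 16.9 and 44.4 ± 5.61 CPM (-0.23, SE 0.23), and its sign turned without wild-type replicate 2. The exception was Xpc, the damage sensor of nucleotide excision repair, at 0.32 (SE 0.32).

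In traffic through the endoplasmic reticulum, Golgi and vesicles, 7 of 11 were lower (median -0.25) and none had an unadjusted p under 0.05. Rpn1 and Sec61a1 were among them, as was Copg1, of the COPI vesicle coat, at 76.5 ± 23.5 and 58.7 ± 12.9 CPM (-0.38, SE 0.24), and Tex261 at -0.34 (SE 0.23). In translation, folding and amino acid or nucleotide enzymes, 7 of 8 were lower (median -0.26), and 3 of these, Nagk, Spr and Eefsec, were at an unadjusted p under 0.05. Tprkb, of the complex that modifies transfer RNA, stood at -0.33 (SE 0.18). Aldh1l1 was the exception in this list, at 0.83 (SE 0.50) with overlapping groups. All 3 transcription factors were lower (median -0.51), with Nr2c2 the one at an unadjusted p under 0.05, Zxdc at -0.51 (SE 0.27) and Mxd1, a MAX partner that opposes MYC, at -0.35 (SE 0.34).

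Among mitochondrial proteins 6 of 9 were higher (median 0.08), with Fam136a and Mthfd2 at an unadjusted p under 0.05 in opposite directions. Bola3, of iron-sulphur cluster assembly, had means of 78.7 and 95.6 CPM (0.28, SE 0.15), and Chchd6, of mitochondrial cristae, 81.6 ± 6.65 and 91.1 ± 17.5 CPM (0.16, SE 0.16). Among RNA-binding and splicing proteins 5 were higher and 4 lower (median 0.00). Lsm3 was the largest of the higher ones at 0.26 (SE 0.14), Tia1 stood at 0.18 (SE 0.13), and Isy1 and Dusp11 were at -0.28 (SE 0.16) and -0.30 (SE 0.19). Among surface and signalling proteins 4 were higher and 5 lower (median -0.22), with Mob1a at -0.31 (SE 0.17), Anxa4 at 0.20 (SE 0.15), Arhgap25 at -0.22 (SE 0.22) and Tpra1 at -0.55 (SE 0.49). Outside the lists, Gkn3, a gastrokine gene, measured 17.1, 14.1, 16.7 and 17.9 CPM in wild type and 17.6, 17.5, 35.5 and 24.1 CPM under the heterozygote label (0.53, SE 0.27), with replicate 3 the highest. Efcc1 had the largest positive value among the protein-coding neighbours (1.36, SE 0.76) at a level of 0.598 ± 0.390 and 1.54 ± 0.746 CPM.

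No neighbour was shown to follow Gata2 from mouse to mouse. Across the 8 libraries, the median Pearson's r of log2 CPM with Gata2 was 0.02, with 52 of 101 positive, and over all genes it was 0.00. At an exact unadjusted permutation p under 0.05, over 40320 pairings, stood 1 neighbour with a positive r and 0 with a negative r, where 1.44% and 2.34% of all genes did. None passed adjustment over 13991 genes, the smallest Benjamini-Hochberg value among neighbours being 1. The 1 neighbour was Gm44093, an unclassified transcript within Aak1 on the same strand, named after its values were seen, with r = 0.71 (exact permutation p = 0.0435) and rho = 0.75 (exact permutation p = 0.038), both 1 after adjustment. Its r was 0.64 without the 2 libraries farthest from the median Gata2 level and 0.61 with values centred within genotype, and it had no fragments in 2 wild-type libraries.

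Leaving out predicted gene models and neighbours with a mean under 1 CPM, the highest r belonged to Nat8f4 (0.65, exact permutation p = 0.0773, rho 0.71, exact p = 0.0576), Hdac11 (0.62, exact permutation p = 0.104, rho 0.62, exact p = 0.115) and Aak1, a kinase of clathrin coats (0.60, exact permutation p = 0.115, rho 0.62, exact p = 0.115). The lowest belonged to Mthfd2 (-0.62, exact permutation p = 0.0973, rho -0.55, exact p = 0.171), Alms1, a centrosome protein (-0.59, exact permutation p = 0.129, rho -0.43, exact p = 0.299), and Gfpt1, the first enzyme of the hexosamine pathway (-0.59, exact permutation p = 0.143, rho 0.02, exact p = 0.977). All adjusted values were 1. Without the 2 libraries farthest from the median Gata2 level, r became 0.30, 0.34 and 0.07 for Nat8f4, Hdac11 and Aak1 and -0.48, 0.29 and 0.15 for Mthfd2, Alms1 and Gfpt1. Those libraries are wild-type replicate 3 and heterozygote-labelled replicate 2, and the values of all 6 but Mthfd2 rest largely on them. Centred within genotype, r was 0.69, 0.67 and 0.52 for the first 3 and -0.48, -0.47 and -0.48 for the others. The nearest neighbours Rpn1 and Eefsec had r of -0.03 and -0.37.

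**Figure D5:**
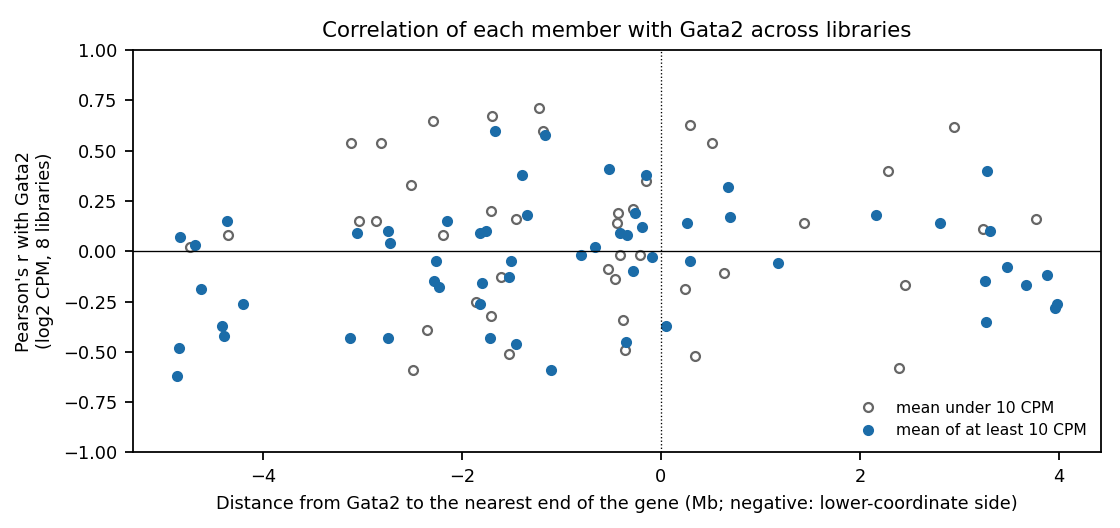
Pearson's r of each neighbour with Gata2 over 8 libraries (log2 CPM), by distance from Gata2 in Mb, with filled circles for a mean of at least 10 CPM and open circles for lower means. Values spread on both sides of 0 at all distances, and the highest belong to genes with a low mean.

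Some neighbours share sequence or position, which limits what their counts show. 15 pairs of neighbours overlap on opposite strands and involve 28 genes, among them Eefsec with Gm44264 and Sec61a1 with Gm44170. The counting used strand to separate these pairs, and how completely the libraries keep strand was not tested. 5 pairs overlap on the same strand, Alms1 with Gm42600, Mxd1 with Gm44292, Aak1 with Gm44093, Isy1 with B130021K23Rik and Rab7 with Gm44187. Overlaps were taken from whole spans, introns included. The second gene of each pair still had fragments counted, with at most 98, 214, 48, 180 and 31 in a library. Fragments in exons of both genes could not be given to either. The paralogs Nat8f1 and Nat8f4 share sequence with other genes, so their levels are uncertain. The same holds for processed or duplicated copies, such as Spr-ps1, Ptges3-ps and Npm3-ps1 and some predicted genes.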

How the data were processed

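The authors deposited raw fragment counts per gene for 8 libraries of sorted stem cells, not normalized. Per the submitters' processing notes, Trim Galore and cutadapt trimmed the reads, which were aligned to GRCm38 with STAR 2.5.1b and counted with featureCounts 1.5.1. Per the file headers, counting used featureCounts 1.6.2, reverse-stranded, with both ends mapped, on GENCODE M17. Which version made the files was not resolved. Fragments that overlap exons of several genes on 1 strand or map to several places were left out. This lowers the counts of genes with overlapping exons and of near-identical copies.

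Symbols and GC content came from another GENCODE release of the same build (53620 identifiers matched, 95 did not). Promoters came from a RefSeq table. Its bases after the start were found in a transcript of the same gene for 85 of 95 neighbour promoters.

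Groups came from the library labels. edgeR 4.0.16 in R 4.3.3 fitted all 13992 genes kept by filterByExpr, with TMM scaling (factors 0.946 to 1.08) and genotype as the only term, and p-values were adjusted over all of them (Benjamini-Hochberg, threshold 0.05). Log2 CPM carries a prior count of 2. Library totals of 16750778 to 22861884 fragments set the counting precision, and genes near 10 fragments have the widest errors. Without molecular identifiers, PCR copies count as fragments. DESeq2 1.42.0 and limma 3.58.1 were alternatives, besides other scalings and filters, a replicate block, a sex term and removal of GC and length trends. Windows of 2.5 and 10 Mb were also used, and each library was left out in turn. The labels give no sex. A mouse was taken as female where Xist exceeded the sum of Ddx3y, Eif2s3y, Kdm5d and Uty, which held for 2 mice in each group. The edgeR procedure was tested on simulated data. No 2 libraries agreed within sampling noise.

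The members, the function lists and the rule for named genes were chosen with earlier results of these data known. The rule took the 5 nearest neighbours on each side, up to 6 per direction with the smallest p at a mean of at least 1 CPM, those without overlap, the 6 highest per kb, the 3 highest and 3 lowest r with Gata2, up to 4 per function list, and the genes at the ends of the window. Predicted genes were named only among the nearest or without overlap.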

Additional observations from a re-analysis of the deposited data

Results flagged for a closer look

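In 4 of the 96 groups of 4 libraries examined for Gata2 and the 47 named neighbours, 1 library stood apart from the other 3, and chance alone gives about 1 in 20 groups. Values are log2 CPM. Alms1 was at 1.62 in wild-type replicate 1 and between 2.92 and 3.15 in the other wild-type libraries. Gfpt1 was at 4.57 in heterozygote-labelled replicate 2 and between 5.17 and 5.26 in the others of its group. Aldh1l1, a cytosolic folate enzyme, was at 1.32 in heterozygote-labelled replicate 1 and between 3.24 and 3.35 in the others. Its log2 fold change was 0.83 (SE 0.50), and 1.14 without that library. Xpc was at 5.27 in wild-type replicate 2 and between 4.00 and 4.19 in the others, and its log2 fold change was 0.32 (SE 0.32), and 0.73 without that library.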

How the results depend on the processing

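No alternative called a neighbour at an adjusted p under 0.05. Leaving out each library in turn gave 4 to 14 neighbours at an unadjusted p under 0.05 (8 in all libraries), 0 to 3 higher and 4 to 11 lower. In these fits 3.87% to 12.5% of all genes had such a p in either direction. The neighbours without overlap numbered 4 to 13 (3.96% to 12.9%), where 5.35% to 13.4% of all genes were without overlap. The highest counts came without wild-type replicate 3, where 12.5% of all genes had such a p, and the lowest total without heterozygote-labelled replicate 3. The median of all neighbours ran from -0.10 to -0.05, the last without wild-type replicate 2. Shares over all genes by direction are not given for the alternatives, so a number higher or lower has no background there. The number higher was 3 with GC and length trends removed, 0 with library size alone and 0 with a sex term. It was 3 by limma-voom, which gave 12 in all and 9 lower (11.9% in all, against 10.1% of all genes). With GC and length trends removed, 7.92% were at such a p in either direction, against 5.33% of all genes. The shares were 6.93% against 6.15% with library size alone and 5.94% against 6.05% with a sex term. Library size alone gave 6 without overlap (5.94%, against 3.44% of all genes) and a median of -0.18, where the median of all genes was -0.08. A window of 2.5 Mb held 4 neighbours at an unadjusted p under 0.05 (6.15%, against 5.66% of all genes), 3 of them lower. Of its 65 neighbours 2 were without overlap, where 3.47% of all genes were. Those correlated with Gata2 numbered 3 with library size alone, 2 without the 2 libraries farthest from its median and 2 centred within genotype. Shares over all genes are not given for these settings, so these counts cannot be read against a background. The shares of the main setting, 1.44% positive and 2.34% negative, belong to that setting only. With the replicate block there were 7 neighbours at an unadjusted p under 0.05 (6.93%, against 6.76% of all genes), 2 higher and 5 lower. With the block and GC and length trends removed, 10 were at such a p (9.9%, against 6.32% of all genes), 4 of them higher. The median of the higher-coordinate side was then 0.03. Same-numbered libraries of the 2 genotypes had correlations of deviations of 0.044, 0.006, 0.096 and 0.022, so the numbers were not taken to pair mice. Mthfd2 and Eefsec kept an unadjusted p under 0.05 in 18 of 18 alternatives, Nr2c2 in 17, Gmcl1 in 14, Nagk in 10, Fam136a in 9 and Spr in 8. The sign turned in at least 1 alternative for 8 of 47 named neighbours (Cct7, Nat8f4, Cnbp, Rab7, Ruvbl1, Gm44170, Mcm2 and Hdac11), none at an unadjusted p under 0.05. Tests and filters on low counts give no overlap count of their own. The causes of these changes were not tested. Depth limits the 42 neighbours under 10 CPM, whose median SE was 0.64.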
